A study of Mus musculus with 4 samples.

Results

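Very long genes carry most of their length as introns, and these introns hold many stretches of open chromatin far from any promoter. This account covers the ATAC-seq peaks in such introns: autosomal peaks inside a protein-coding GENCODE M21 gene of at least 300 kb, touching no exon and lying over 5 kb from every protein-coding start site. The rule found 11172 member peaks among the 128055 peaks of the table. They lay in 513 of 541 autosomal protein-coding genes of this length, while 28 genes held none. The 25490 peaks that met the same rule in genes under 300 kb served for comparison, weighted to the members' mean values over the 4 libraries in 50 bins (called equal mean value here). Gene length and position chose the members, and neither is a measurement of these libraries.

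In ATAC-seq the Tn5 transposase inserts adapters into open DNA, so that the number of reads over a region follows its accessibility. The cells were mesenchymal stem cells (MSCs), the precursors of bone and fat cells, from bones of C57BL6/N mice 3 to 5 months old. They grew out of bone fragments at 2% O2, were sorted by flow cytometry on day 12 as CD45-, TER-119-, CD140a+ and Sca-1+ cells, and were then either kept in hypoxia (2% O2, 2 libraries) or moved to normoxia (21% O2, 2 libraries). Both groups thus began in hypoxia, and the data describe cultured, sorted cells rather than the bone niche. The study describes its replicates as biologically independent experiments. It also reports that sorted cells were divided between the 2 oxygen levels. The labels number the libraries without saying which animals they came from, or whether equal numbers share sorted cells.

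Distal intronic peaks are often enhancers or other regulatory elements, and an element can act on its host gene or on a neighbour. Genes of this length are known for roles in neurons, in cell adhesion and in signalling, and several of them span common fragile sites. Long introns tend to be rich in A and T, poor in genes and late to replicate. Many of the longest genes are silent or weakly used outside the nervous system, whereas others, such as those for transcription factors and matrix proteins, are used in mesenchymal cells.

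The central 300 bases of 5 member peaks are shown because these peaks had the lowest p-values in each direction of the comparison between oxygen levels. They were read from the plus strand of the GRCm38 assembly (RefSeq), the build of the peak coordinates. Capitals mark matches on either strand to TGANTCA (bound by AP-1 factors), ACATTCC (TEAD factors) or TGTGGTT (RUNX factors). The first 3 peaks were lower in normoxia and the other 2 were higher.
Ntrk3 intron, chr7:78690501-78690800: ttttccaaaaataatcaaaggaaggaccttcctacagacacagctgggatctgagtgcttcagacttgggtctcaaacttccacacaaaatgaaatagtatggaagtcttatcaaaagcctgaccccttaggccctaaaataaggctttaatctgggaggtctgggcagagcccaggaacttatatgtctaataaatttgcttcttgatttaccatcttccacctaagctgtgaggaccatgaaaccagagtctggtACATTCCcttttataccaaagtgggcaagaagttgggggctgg
Grik1 intron, chr16:88187601-88187900: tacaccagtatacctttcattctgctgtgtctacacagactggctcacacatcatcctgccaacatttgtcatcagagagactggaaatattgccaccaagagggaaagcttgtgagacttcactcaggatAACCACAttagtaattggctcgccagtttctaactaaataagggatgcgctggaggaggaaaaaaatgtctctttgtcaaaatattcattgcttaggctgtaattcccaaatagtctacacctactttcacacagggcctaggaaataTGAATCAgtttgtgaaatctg
Dgki intron, chr6:37143701-37144000: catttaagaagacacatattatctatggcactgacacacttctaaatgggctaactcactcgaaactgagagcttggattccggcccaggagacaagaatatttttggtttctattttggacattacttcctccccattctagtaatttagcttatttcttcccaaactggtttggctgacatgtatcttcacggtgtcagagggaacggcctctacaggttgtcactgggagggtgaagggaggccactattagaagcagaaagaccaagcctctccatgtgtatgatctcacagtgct
Ccser1 intron, chr6:61757101-61757400: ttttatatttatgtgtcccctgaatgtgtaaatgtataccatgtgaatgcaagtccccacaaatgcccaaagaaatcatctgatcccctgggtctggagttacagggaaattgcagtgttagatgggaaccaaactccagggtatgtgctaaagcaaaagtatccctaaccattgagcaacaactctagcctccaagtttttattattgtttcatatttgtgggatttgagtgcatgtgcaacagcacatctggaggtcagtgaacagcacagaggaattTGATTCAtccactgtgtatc
Camk1d intron, chr2:5379051-5379350: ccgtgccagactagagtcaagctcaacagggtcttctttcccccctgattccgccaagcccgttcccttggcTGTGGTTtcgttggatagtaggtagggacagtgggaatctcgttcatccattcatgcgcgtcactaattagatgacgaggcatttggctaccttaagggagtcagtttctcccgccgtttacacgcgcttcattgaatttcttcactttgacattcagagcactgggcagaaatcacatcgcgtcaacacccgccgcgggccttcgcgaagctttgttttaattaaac

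The values of these peaks are given first as deposited (reads per 10000000 reads of the library, not divided by peak width) and were then scaled between libraries for the test. The Ntrk3 peak (chr7:78689701-78691600, 47.4 kb from the start of the gene) had deposited values of 160 and 184 in hypoxia, against 48.7 and 61.4 in normoxia. Ntrk3 encodes the receptor for neurotrophin-3. Both normoxia libraries lay far below both hypoxia libraries, and the scaled log2 fold change, normoxia over hypoxia, was -1.16 ± 0.13 (SE; limma, false discovery rate FDR = 6.2e-07). In such bulk libraries a lower signal in every cell and an open site in fewer cells cannot be told apart.

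The Grik1 peak (chr16:88186901-88188600), in the gene of a kainate receptor subunit, had 98.7 and 121 in hypoxia, against 30.0 and 32.7 in normoxia. The Dgki peak (chr6:37143101-37144600), in the gene of a diacylglycerol kinase, had 68.3 and 84.7 against 21.0 and 20.4. Scaled fold changes of these peaks were -1.30 ± 0.15 (FDR = 7.8e-07) and -1.36 ± 0.17 (FDR = 3.6e-06). The peak with the next lowest p-value lay in Dlgap1, a scaffold gene of the postsynaptic density (chr17:70736901-70740100). Its deposited values were 226 and 280 in hypoxia, against 88.8 and 104 in normoxia, with a scaled log2 fold change of -0.90 ± 0.12 (FDR = 6.0e-06).

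Among peaks higher in normoxia, the one in Ccser1 (chr6:61756301-61758200) had the lowest p-value. It had 21.9 and 23.8 in hypoxia, against 46.5 and 62.4 in normoxia, a scaled log2 fold change of 1.67 ± 0.18 (FDR = 2.5e-07). The Camk1d peak (chr2:5378801-5379600), in a calmodulin-dependent kinase gene, had 66.2 and 60.5 against 106 and 107 and changed by 1.21 ± 0.14 (FDR = 6.7e-07). The peak in Agbl4 (chr4:110886101-110886600), a tubulin carboxypeptidase gene, went from 10.6 and 24.1 to 50.6 and 42.7, a change of 1.93 ± 0.23 (FDR = 1.7e-06). For each peak named so far the groups did not overlap in the deposited values. These peaks were chosen on this contrast, so nothing is read from that. The peak caller had assigned each of them to both oxygen levels.

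Between 6.05% and 24.0% of the bases of these peaks were masked as repeats in the reference, so none was mostly repeat. Over all members the median masked share was 12.6%, beside 14.0% in members called lower and 12.3% in members called higher. At least 50% of the length was masked in 3 of the 190 members called lower and in 6 of the 299 called higher.

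The members' median width was 900 bp, their median mean value was 12.0 and their median GC content was 43.8%. Over all peaks these medians were 1000 bp, 14.3 and 45.9%, so the members were somewhat narrower and weaker. Intronic peaks of shorter genes had the same median width as the members and, at equal mean value, a median GC content of 45.4%. A median member rested on 35 and 40 reads (hypoxia) or 28 and 35 reads (normoxia), out of library totals between 26680936 and 29965523, so single weak members rest on few reads. No filter on low values was used, all 11172 members were tested, and 4 of them were at 0 in every library. The strongest member was a 14.8 kb wide peak inside Gm20388 (chr8:124277301-124292100), with 450 and 413 in hypoxia, against 279 and 291 in normoxia and a scaled log2 fold change of -0.12 ± 0.10 (FDR = 0.45). The next strongest lay in Trpm3, a cation channel gene, and in Naaladl2, with scaled fold changes of -0.30 ± 0.10 (FDR = 0.042) and -0.34 ± 0.11 (FDR = 0.029), neither of which passed the FDR of 0.01 used here.

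All 8 promoters of MSC marker genes (Pdgfra, Ly6a, Prrx1, Col1a1, Col1a2, Twist2, Thy1, Nt5e) held a peak, with mean values from 59.9 to 649. Of the blood markers reported here, Spi1 had a promoter peak (11.5), and Ptprc, Cd79a, Cd3e and Itgam had none. Of 4 endothelial markers, Kdr and Pecam1 had weak peaks (23.3 and 9.61). All 4 neuronal markers had a promoter peak, from 11.7 for Snap25 to 115 for Tubb3, a gene also used outside neurons. The scaled promoter values of Snap25 were 11.5 and 11.4 in hypoxia, against 13.9 and 9.79 in normoxia, so this neuronal marker did not separate the groups.

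The scaling of the libraries sets the zero line of every fold change given here. As deposited, the median log2 fold change over all peaks was -0.44, and the size factors moved it to -0.0040, so that changes are relative to the typical peak. Member peaks held 2.65% and 3.00% of the library total in hypoxia and 1.92% and 2.16% in normoxia, and both normoxia libraries were lower. Of the reads in all distal intronic peaks, however, member peaks held 29.8% and 30.2% in hypoxia, against 30.5% and 30.8% in normoxia (two-sided exact permutation p = 0.333, the lowest that 2 against 2 libraries allow). The median member fell by 0.34 on the log2 scale as deposited and stood at 0.10 after scaling, where shorter genes at equal mean value stood at 0.061. After scaling, 58.2% of members had a positive fold change, against 55.5% in shorter genes at equal mean value and 49.6% of all peaks.

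To ask how oxygen level altered the chromatin of these introns, calls were made by limma over the whole table. Of all 128055 peaks, 4.57% were called lower and 1.77% higher in normoxia. Among the members, 190 (1.70%) were called lower and 299 (2.68%) higher. The members' share called lower was below that of all peaks and their share called higher was above it. In shorter genes at equal mean value 2.10% were called lower and 1.65% higher, and when GC content was matched as well the shares were 1.92% and 1.94%. Peaks are not replicates of a condition, so these shares are descriptions and were not tested against each other. This comparison was repeated over other scalings, pseudocounts, filters, thresholds, tools and sets of libraries, but not over other definitions of the genes or peaks. In the 12 such settings that made calls, the one reported here included, the share of members called higher was above that of shorter genes by a factor of 1.35 to 2.39, and the share called lower was below it.

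The number of calls and their balance depended on single libraries. Without hypoxia library 1, limma called 0 members either way, with 697 lower and 1089 higher at an unadjusted p under 0.05. Without hypoxia library 2 it also called 0, with 494 lower and 1364 higher. Without normoxia library 1 it called 132 lower and 138 higher. Without normoxia library 2 it called 232 lower and 127 higher, so that lower calls outnumbered higher ones. With all 4 libraries edgeR on the reads recovered from the values, which are whole multiples of what 1 read is worth, called 250 members lower and 420 higher, and these included all 190 and all 299 of the limma calls.

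Called members differed in kind between the directions. Those called lower were strong and wide, with a median mean value of 64.9, a median width of 1800 bp and a median log2 fold change of -0.69. Those called higher had a median mean value of 15.2, a median width of 900 bp and a median log2 fold change of 1.14, and 198 of them changed by more than 2-fold, against 41 of those called lower. Median GC content was 45.9% in members called lower and 41.1% in members called higher. The peak caller had placed 613 members (5.49%) in hypoxia only and 2 in normoxia only, and in shorter genes at equal mean value it placed 6.36% in hypoxia only.

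The fold change of members followed their strength. In 10 equal classes of mean value, it was -0.38 in the weakest class, where a peak held a median of 5 reads per library, rose to 0.29 in the third class and fell again to 0.00058 in the ninth and -0.17 in the strongest. Intronic peaks of shorter genes followed the same course and stood below the members in 8 of the 10 classes, with values of -0.41, 0.22, -0.033 and -0.18 in the same classes. In the strongest class 10.7% of members were called lower, against 0.090% in the third class.

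**Figure D1:**
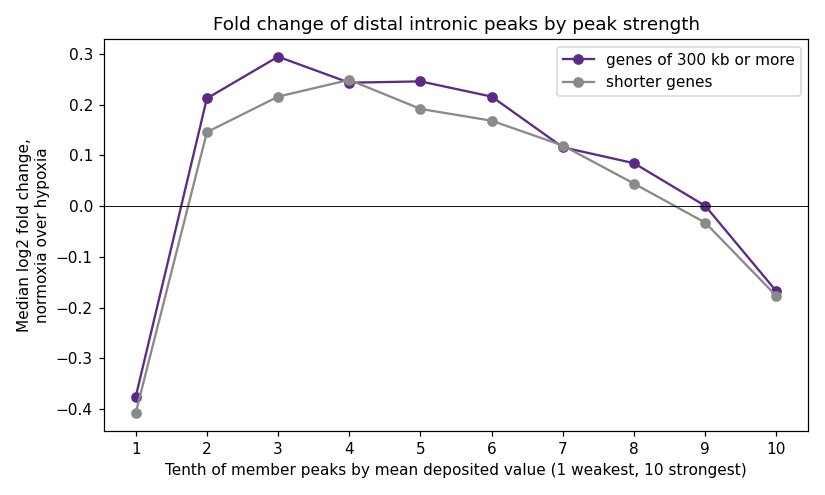
Median log2 fold change, normoxia over hypoxia after scaling (vertical axis), in 10 classes of mean deposited value that hold equal numbers of members (horizontal axis), for peaks in genes of at least 300 kb (purple) and in shorter genes (grey). Both lines are below 0 in the weakest and strongest classes, at -0.38 and -0.17 for the members, and highest between them.

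Gene length went with the share of distal intronic peaks called higher. Just below the limit, in genes of 200 to 300 kb, 1.69% of peaks were called higher, and just above it, in genes of 300 to 500 kb, 2.36% were. In genes of 500 to 1000 kb the share was 2.83% and in genes over 1000 kb it was 3.31%, whereas it was 1.36% in genes under 50 kb. Weighting each class to the members' mean values changed these shares little, to 1.75%, 2.35%, 2.81%, 3.32% and 1.46%. The weighted share called lower was 2.62% in genes under 50 kb and 1.48% in genes over 1000 kb, without a steady fall between. It was 1.90% at 200 to 300 kb, 1.68% at 300 to 500 kb and 1.86% at 500 to 1000 kb. Median GC content was 46.6% in genes under 50 kb and 43.8% in genes over 1000 kb, and it was not matched in these classes. Position along the gene showed no steady course. The share called higher was 2.78% within 50 kb of the gene start, 2.25% at 100 to 200 kb, 3.09% at 400 to 800 kb and 2.90% over 800 kb from it.

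**Figure D2:**
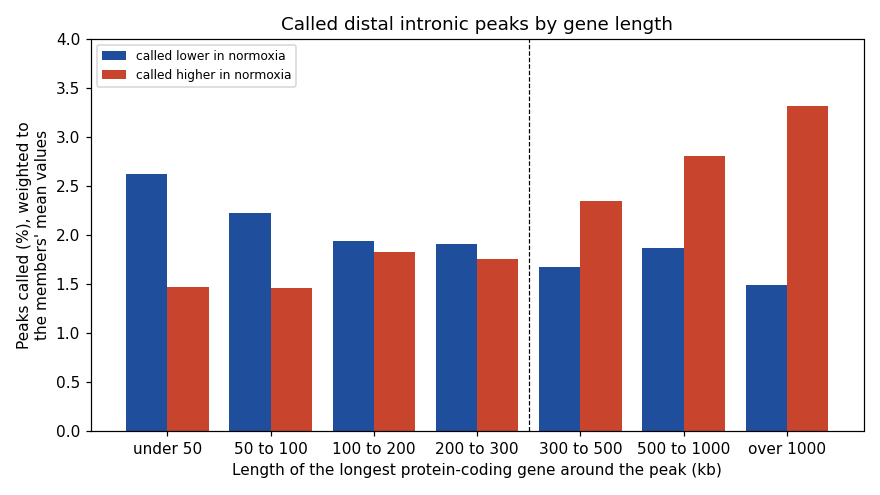
Percent of distal intronic peaks called lower (blue) or higher (red) in normoxia (vertical axis, weighted to the members' mean values) by the length of the longest protein-coding gene around the peak in kb (horizontal axis), with a dashed line at 300 kb. The share called higher goes from 1.46% in genes under 50 kb to 3.32% in genes over 1000 kb.

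Base composition went with the calls as well. Distal intronic peaks were cut into 4 classes of GC content of equal size. In the class with the lowest GC content, up to 41.6%, 161 of 3507 members (4.59%) were called higher and 23 lower. In the class with the highest, over 48.3%, 20 of 1937 members (1.03%) were called higher and 36 lower. At equal mean value the share called higher was 4.56% in members and 3.29% in shorter genes in the lowest class, and 1.11% and 0.80% in the highest. GC content thus moved with the calls in genes of both kinds, and its part in them was not tested.

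**Figure D3:**
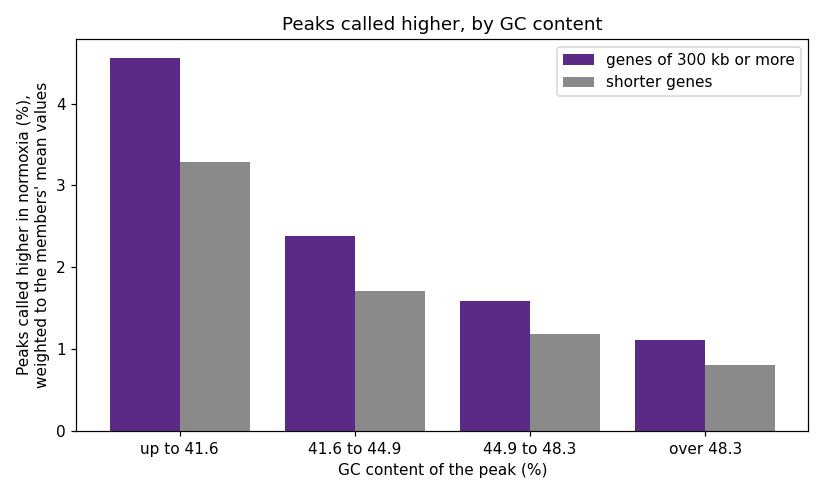
Percent of peaks called higher in normoxia (vertical axis, weighted to the members' mean values) in 4 classes of GC content of the peak (horizontal axis), for genes of at least 300 kb (purple) and shorter genes (grey). The members' bar is the higher one in each class, from 4.56% against 3.29% at the lowest GC content to 1.11% against 0.80% at the highest.

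How closely peaks were packed in a gene also went with the calls. In long genes with at most 2 distal intronic peaks per 100 kb, 5.40% of members were called higher and 0.99% lower. In long genes with over 8 per 100 kb, 1.23% were called higher and 2.06% lower. The median log2 fold change was 0.24 in the first class and -0.011 in the second. Shorter genes gave 2.76% and 0.98% higher and 0.67% and 3.05% lower in the same classes. In the sparsest class members were thus called lower more often than peaks of shorter genes, and in the densest class less often. Density and GC content overlap: members of low GC content (up to 44.9%) in genes with at most 4 peaks per 100 kb were called higher in 4.98% of cases, those of low GC content in denser genes in 2.90%, and those of higher GC content in 1.20% and 1.36%. In shorter genes these shares were 3.08%, 2.17%, 1.56% and 0.83% in the same order, so members of higher GC content in sparse genes were below shorter genes. Density is itself a product of peak calling in these libraries.

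Short sequence motifs were then counted in the central 300 bases of each peak, on both strands. The TEAD motif ACATTCC was present in 946 members (8.47%), in 7.61% of peaks of shorter genes at equal mean value and in 7.18% of all peaks. It was found in 53 of 299 members called higher (17.7%) and in 14 of 190 called lower (7.37%). The median log2 fold change was 0.26 in members with the motif and 0.084 in those without, at median GC contents of 43.3% and 43.9%. TEAD factors carry the output of the Hippo pathway in mesenchymal cells. In each library the median scaled log2 level of members with the motif, less that of members without it, was -0.038 and -0.066 in hypoxia, against 0.093 and 0.075 in normoxia, so both normoxia libraries lay above both hypoxia libraries.

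The AP-1 motif TGANTCA, recognised by Fos and Jun proteins, was the most frequent, in 24.8% of members against 22.2% in shorter genes at equal mean value and 20.6% of all peaks. It was present in 24.7% of members called lower and 15.1% of those called higher. The RUNX motif TGTGGTT, bound by factors that include the bone regulator Runx2, was in 11.3% of members, 12.6% of those lower and 15.4% of those higher, and in 10.1% of all peaks. ACGTG, the core of the hypoxia response element, was in 13.5% of members and 14.9% of all peaks, and in 18.9% of members called lower and 9.36% of those called higher. The E-box CACGTG, which contains ACGTG, was in 3.87% of members and 4.20% of all peaks, CAGCTG in 16.3% and 17.1%, and the NFI motif TTGGCA in 21.6% and 19.3%. The difference in level with and without a motif was higher in both normoxia libraries for RUNX too (-0.038 and -0.066 in hypoxia, 0.047 and 0 in normoxia). It was lower in both for AP-1 (-0.11 and -0.066, against -0.15 and -0.16), ACGTG (0.074 and 0.033, against 0 and 0) and CACGTG (0.18 and 0.19, against 0.16 and 0.075). For CAGCTG and NFI the libraries overlapped, and none of these differences, TEAD included, was tested. These medians are coarse, since peaks with few reads take few distinct values. TEAD and RUNX had the same 2 hypoxia values, and several normoxia values were exactly 0. A match describes the letters of a window and not a bound factor, and called members differ from the rest in GC content.

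The signal was then summed over the member peaks of each gene. A gene held a median of 18 members (range 1 to 269) and 3.81 per 100 kb (range 0.097 to 16.4), 93 genes held at most 5 members and 27 held 50 or more. Because 119 members lay inside more than 1 long gene, they count in each. Over all 6681 protein-coding genes with a distal intronic peak, limma called 2.41% lower and 2.28% higher in normoxia. Of the 513 long genes, 8 were called lower (1.56%) and 28 higher (5.46%). All 8 and all 28 were also called by edgeR on the recovered reads. Genes under 300 kb gave 2.48% lower and 2.01% higher. At equal summed value the shorter genes gave 8.66% lower and 1.16% higher, but a shorter gene reaches such sums only with more closely packed or stronger peaks.

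The gene calls depend on the libraries and on the scaling. Without hypoxia library 1 they fell to 2 lower and 3 higher, without hypoxia library 2 to 1 lower and 15 higher. Without normoxia library 1 there were 5 lower and 39 higher, and without normoxia library 2 there were 13 lower and 24 higher. On the values as deposited all 8 genes called lower were lower, while 16 of the 28 called higher were higher and the other 12 were lower. In 8 of the 28 the deposited sums of both normoxia libraries exceeded both hypoxia libraries, as they did in 12 of the 513 long genes (2.34%) and in 5.37% of all 6681 genes. The 28 were chosen on this contrast, so nothing is read from their share.

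Among genes called lower, Ntrk3 had the lowest p-value. Its 54 members, scaled and summed, gave 993 and 1009 in hypoxia, against 685 and 775 in normoxia, a log2 fold change of -0.46 ± 0.070 (FDR = 0.00033). Dlgap1 had sums of 548 and 578 against 399 and 426 (-0.45 ± 0.077, FDR = 0.00086). In both genes the normoxia libraries lay below the hypoxia libraries.

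Slc8a1, which encodes a sodium-calcium exchanger, had 666 and 728 in hypoxia, against 526 and 555 in normoxia, a log2 fold change of -0.37 ± 0.074 (FDR = 0.0027). Gria1, the gene of an AMPA receptor subunit, had 439 and 446 against 306 and 363 (-0.41 ± 0.088, FDR = 0.0046). Creb5, which encodes a transcription factor of the CREB family, had 826 and 826 against 673 and 661 (-0.31 ± 0.067, FDR = 0.0046). The other genes called lower included Dnm3 (a dynamin) and Slc14a2 (a urea transporter), with log2 fold changes of -0.30 and -0.27.

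Exoc6b, which encodes a subunit of the exocyst that tethers secretory vesicles, had the lowest p-value among genes called higher. Its 14 members summed to 155 and 163 in hypoxia, against 257 and 243 in normoxia (log2 fold change 0.65 ± 0.095, FDR = 0.00023). Klhl1, a member of the Kelch-like family, had the largest fold change of the named genes, from 18.7 and 21.9 to 40.7 and 48.2 (1.09 ± 0.19, FDR = 0.00086), but this sum rests on 4 peaks. In each of these genes the 2 normoxia libraries stood above the 2 hypoxia libraries.

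Chst9, a sulfotransferase gene, had 68.9 and 76.7 against 119 and 114 (0.68 ± 0.12, FDR = 0.00095). The gene 2210408I21Rik had 92.0 and 83.6 against 144 and 131 (0.64 ± 0.11, FDR = 0.0011). Cacnb2, the gene of a calcium channel subunit, had 287 and 337 against 411 and 496 (0.53 ± 0.096, FDR = 0.0011). Other genes called higher included those of the cell surface proteins Pcdh9, Pcdh15, Lsamp, Cntnap5b and Ptprd, the potassium channel Kcnd2, the receptor kinase Erbb4 and the transcription factors Foxp2 and Dach1, with log2 fold changes from 0.33 for Ptprd to 0.73 for Kcnd2.

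**Figure D4:**
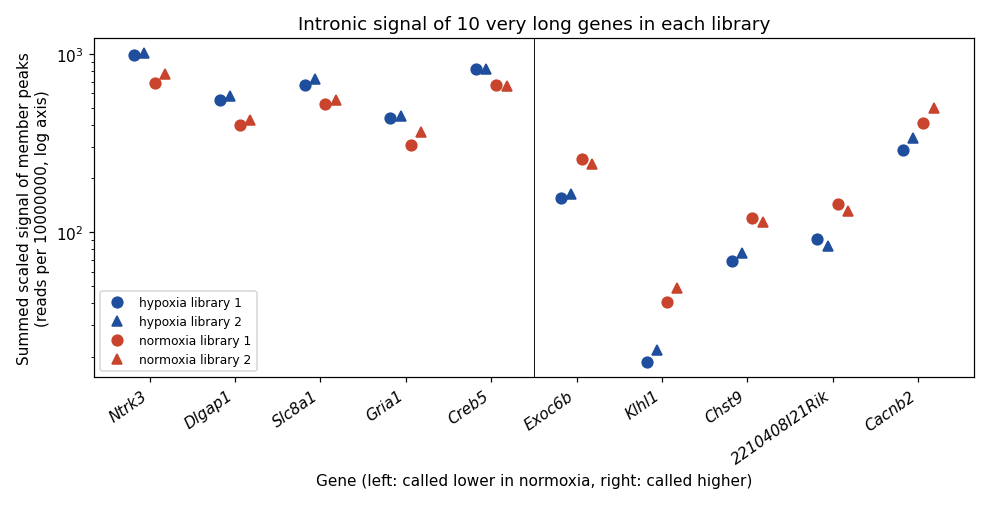
Summed scaled signal of the member peaks (reads per 10000000, log axis) in each library for the 5 genes called lower and the 5 genes called higher in normoxia with the lowest p-values (horizontal axis), with hypoxia in blue and normoxia in red, and circles and triangles for libraries 1 and 2. In each gene the normoxia libraries lie on 1 side of the hypoxia libraries, for example 257 and 243 against 155 and 163 in Exoc6b.

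Genes called higher held few members. Their median was 12.5 members and 1.75 per 100 kb, against 28 members and 6.89 per 100 kb in genes called lower. Median GC content of the members, taken per gene, was 40.0% and 45.0%. Across the 513 genes the log2 fold change fell with peak density (Spearman's rho -0.40) and with the summed value (rho -0.46) and had little relation to gene length (rho 0.088). These correlations are across genes of the same 4 libraries and describe them only.

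**Figure D5:**
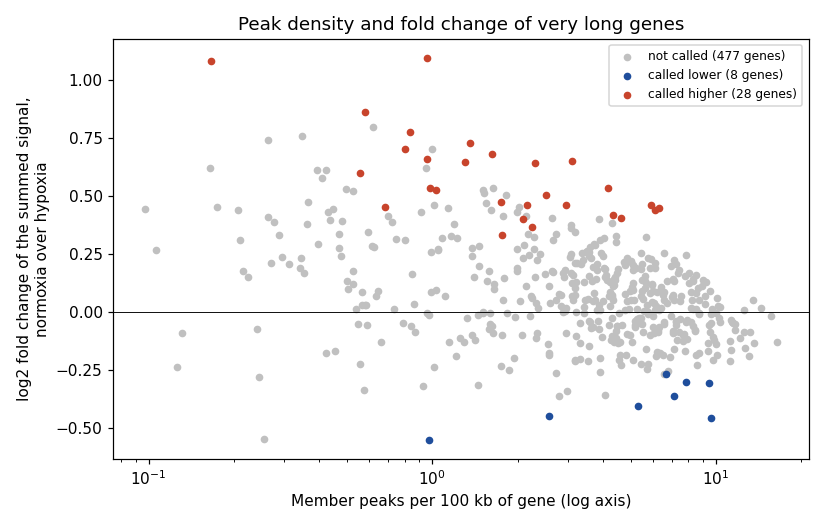
Log2 fold change of the summed member signal, normoxia over hypoxia after scaling (vertical axis), against member peaks per 100 kb of gene (horizontal log axis) for 513 genes, with the 8 genes called lower in blue, the 28 called higher in red and the others in grey. Genes with few peaks per 100 kb spread upward, and the genes called higher have a median density of 1.75 against 6.89 for those called lower.

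The 12 genes with the most members were not called in either direction. They were the gene models Gm20388 (269 members) and Gm37240 (79), Fgfr2 (186), the phosphodiesterase gene Pde4d (88), Nav2 and the RNA-binding protein gene Rbms3 (71 each), Foxp1 (70), the glypican gene Gpc6 (69), the guidance ligand gene Slit3 and the nuclear receptor gene Rora (67 each), the zinc finger gene Glis3 (66) and the recombination gene Rad51b (65). Their log2 fold changes lay between -0.10 for Pde4d and 0.12 for Gm37240. Pde4d had scaled sums of 1660 and 1788 in hypoxia, against 1637 and 1574 in normoxia, and Rora had 1538 and 1526 against 1611 and 1525, with log2 fold changes of -0.10 ± 0.057 and 0.033 ± 0.056 (SE; FDR = 0.24 and 0.73). Gm20388 spans 4435 kb and covers many other genes, and Fgfr2 spans 2961 kb in GENCODE M21 but 104 kb in RefSeq. Of the 513 genes, 506 matched a RefSeq gene by symbol or synonym, and 487 were at least 300 kb long in both. Those 487 genes held 10374 members, of which 178 were called lower and 284 higher.

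Of the 513 genes, 130 held a member called lower, 203 a member called higher and 236 neither. These counts depend on how many members a gene holds (1 to 269) and were not set against shorter genes. Over all members 1.70% were called lower and 2.68% higher, and over all peaks 4.57% and 1.77%. Among the 277 genes with a called member, 221 held calls in 1 direction and 56 in both. The genes described next were picked after their values were seen, for having the most called members. In Ntrk3 6 of 54 members were called lower, and 5 of these lay between 34.9 and 69.8 kb from the gene start. Those at 45.1, 46.0 and 47.4 kb adjoin without a gap, so they form a single stretch rather than separate sites. In Thsd4, whose product is a matrix protein of the ADAMTS-like family, 6 of 35 members were called higher, spread from 75.9 to 547 kb from the start, and its sum rose from 425 and 403 to 627 and 508 (log2 fold change 0.45 ± 0.088, FDR = 0.0022). The long gene model of Fgfr2, the fibroblast growth factor receptor gene, held 6 members called lower and 3 called higher among 186. These calls lay 896 to 2630 kb from the start of the 2961 kb model. A gene of 104 kb, its RefSeq length, at either end of the model would hold none of them. In Lrmda 5 of 49 members were called higher. Of the genes that also held 5 calls, Clstn2 and Gm37240 each had 1 lower and 4 higher, and Gpc6 had 2 lower and 3 higher.

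The promoters of the same genes were read beside their introns. Of the 513 genes, 444 had a peak within 1 kb of a start site, and the strongest such peak was called lower in 99 and higher in 2 of them, with a median log2 fold change of -0.26. All 17661 peaks within 1 kb of a protein-coding start site had a median of -0.27, with 16.7% called lower and 0.44% called higher. That set holds every such peak and not only the strongest of each gene, so the shares are not like for like. Among the 28 genes called higher over their introns, 23 had a promoter peak, of which 4 were called lower and 0 higher by limma. They included Ptprd, Gphn and 2210408I21Rik, with promoter log2 fold changes of -0.66, -0.73 and -0.69. Over the 444 genes the promoter and intronic fold changes had a Spearman's rho of 0.15, a description over genes that share the libraries.

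The long genes were also grouped by function, in lists that hold examples of each function rather than every long gene that has it. Ntrk3 (a receptor kinase), Dlgap1 and Gria1 (synaptic genes), all called lower, and the transcription factor genes Foxp2 and Dach1, both called higher, are in none of the lists. Of 36 transcription factor and chromatin regulator genes listed, 29 were long and had members. Creb5 alone was called lower and 0 were called higher by limma, beside 1.56% lower and 5.46% higher of all long genes. Over all 6681 genes tested these shares were 2.41% and 2.28%. The median log2 fold change of the list was -0.017, beside 0.067 for all long genes and 0.074 for all genes tested. Of the 1094 members in the list, 21 (1.92%) were called lower and 18 (1.65%) higher, beside 1.70% and 2.68% of all members and 4.57% and 1.77% of all peaks. By summed value the largest were Foxp1, Auts2 and Rora, with log2 fold changes of -0.078, -0.099 and 0.033, none called.

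Of the 17 long kinase, phosphodiesterase and small GTPase genes listed, 1 (Erbb4) was called higher and 0 lower by limma, with a median log2 fold change of 0.023 and 11 of 762 members (1.44%) called lower and 13 (1.71%) higher, beside 4.57% and 1.77% of all peaks. The largest genes of this list by signal, Fgfr2, Pde4d and the cyclin-dependent kinase gene Cdk14, had log2 fold changes of -0.065, -0.10 and -0.087. The Fgfr2 model, 2961 kb in GENCODE M21 but 104 kb in RefSeq, held 186 members, 6 of them called lower and 3 higher. Of the 26 long genes listed for adhesion, matrix and cytoskeleton, 1 (Ptprd) was called higher and 0 lower by limma, with a median of 0.051. Of their 984 members, 14 (1.42%) were called lower and 26 (2.64%) higher, beside 1.70% and 2.68% of all members. Over all peaks these shares were 4.57% and 1.77%, and limma called 1.56% of all long genes lower and 5.46% higher. Nav2, Gpc6 and the receptor phosphatase gene Ptprm had 0.059, 0.049 and -0.064.

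The 28 long genes listed for neuronal adhesion and synapse that held members included 2 called higher, Lsamp and Cntnap5b, and 0 called lower by limma, beside 5.46% and 1.56% of all long genes. Their median log2 fold change was 0.17, with 19 of 28 above 0, and 20 of 457 members (4.38%) were called higher and 9 (1.97%) lower. Over all members these shares were 2.68% and 1.70%, and over all peaks 1.77% and 4.57%. These genes held a median of 0.97 members per 100 kb at a median GC content of 40.0%, the lowest of the 5 lists in both measures. Rbfox1, Opcml and Dlg2, the largest by summed value, had log2 fold changes of -0.10, -0.14 and 0.11. Rbfox1 had scaled sums of 1118 and 1205 in hypoxia, against 1029 and 1133 in normoxia, and these overlapped.

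The 8 genes over common fragile sites, regions that break under replication stress, had 286 members, of which 12 (4.20%) were called higher and 2 (0.70%) lower. Beside these stand 2.68% and 1.70% of all members and 1.77% and 4.57% of all peaks. The list had a median GC content of 40.3% and 3.04 members per 100 kb, and 4.59% of all members in the class of lowest GC content were called higher. Their median log2 fold change was 0.14, and 5 of 8 were above 0. Limma called 0 of the 8 in either direction, beside 1.56% lower and 5.46% higher of all long genes. Wwox, Macrod2 and Naaladl2 had -0.043, 0.12 and -0.092. Macrod2 had scaled sums of 847 and 907 in hypoxia, against 903 and 1009 in normoxia, so its libraries overlapped.

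Last, the members were set against shorter genes within each library. The median scaled log2 level of members, less that of shorter genes at equal mean value, was -0.037 and 0 in hypoxia, against 0 and 0.039 in normoxia. The difference between groups was 0.038 where the pooled SD was 0.027 (two-sided exact permutation p = 0.667). Taken over means in place of medians, a choice made after seeing how coarse the medians were, the values were -0.042 and -0.0073 in hypoxia, against 0.017 and 0.036 in normoxia, a difference of 0.051 where the pooled SD was 0.020 (two-sided exact permutation p = 0.333). Members thus stood slightly higher relative to shorter genes in both normoxia libraries than in both hypoxia libraries by the mean, and the medians touched.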

How the data were processed

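ATAC-seq was performed on 2 libraries from hypoxia (2% O2) and 2 from normoxia (21% O2). Per the study's methods and the submitters' processing notes, the authors mapped reads to mm10 with Bowtie2, removed duplicates with Picard and called a single peak set with chromstaR in differential mode. The authors call the deposited values RPKM, but they are a signal that was not divided by peak width: 100% were whole multiples of 10000000 divided by the library total, so whole reads were recovered.

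Peaks were annotated with GENCODE M21 (GRCm38). Values were divided by relative log expression size factors (1.13, 1.23, 0.81 and 0.89), put on a log2 scale with a pseudocount of 1, which understates the change of low peaks, and tested with limma 3.58.1 in R 4.3.3 (lmFit, eBayes with trend and robust, two-sided). P-values were adjusted by Benjamini-Hochberg over all peaks, or over all genes for sums, and called at an FDR under 0.01. edgeR 4.0.16 (quasi-likelihood test) on recovered reads, other scalings, pseudocounts, filters, thresholds, peak and gene definitions, a replicate block and leaving out each library were alternatives. The functions were tested on simulated data. GC content and repeat masking came from the RefSeq sequence of GRCm38.

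Named genes were the 12 with most members, the 5 called each way with the lowest p and the 3 with most signal in each of 5 lists. Named peaks were the 4 called each way with the lowest p and the 3 strongest. A few named genes, 1 marker and 1 named peak are not reported here. Members, lists and rules were chosen with earlier results of these data known.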

Additional observations from a re-analysis of the deposited data

How the results depend on the processing

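The balance of calls followed the scaling. As deposited there were 1634 members lower and 81 higher, 219 genes lower and 0 higher (limma, 2 higher at an unadjusted p under 0.05), and the median log2 fold change of members reversed to -0.338. With equal totals over nuclear peaks there were 79 members lower and 518 higher, 2 genes lower and 157 higher, and a median of 0.233. Cyclic loess gave 80 members lower, 5 genes lower and a median of 0.050. A pseudocount of 0.1 gave 117 members lower, a pseudocount of 5 a median of 0.070 and a minimum mean value of 5 a median of 0.119. An FDR under 0.05 gave 496 members lower and 828 higher, 23 genes lower and 76 higher. Without trend and robust estimation limma called 0 members and 0 genes either way, with 817 members lower and 1678 higher and 7 genes lower and 63 higher at an unadjusted p under 0.05. A gene length of at least 500 kb left, by its construction, 91 members lower and 167 higher, 2 genes lower and 13 higher, with a median of 0.114. Counting exons of protein-coding genes only gave a difference from shorter genes of 0.080.

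Leaving out each library in turn gave 0 to 232 members lower, 0 to 138 higher, with the balance turned to 232 lower and 127 higher without normoxia library 2, medians of 0.068 to 0.107, differences from shorter genes of 0.019 to 0.057, 1 to 13 genes lower and 3 to 39 higher. The deviations of same-numbered libraries had a correlation of 0.011 over all peaks, but this cannot decide whether equal numbers share sorted cells. A fit with the replicate block gave more calls, with 309 members lower and 501 higher, 28 genes lower and 82 higher. Where no construction explains a shift, the cause was not tested. The other alternatives kept direction and stayed within 1.5 times the count or 1 SD of the value. With about 28 to 40 reads per median member and library, small changes of single members were not detectable.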

Other observations

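The 28 genes of at least 300 kb without a member peak ranged from 307 kb (Dnah7b) to 1022 kb (Cntn4). They included the contactin genes Cntn3 and Cntn4 and the related Cntnap4, Cntnap5a and Cntnap5c, which encode neuronal adhesion proteins, the ephrin receptor genes Epha5 and Ephb1, and Dock2, a gene used in blood cells. The absence of a member means that no peak met the rule, and values outside called peaks were not used here.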
